A study of Mus musculus with 128 samples.

Results

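The genes described here are the organic ion transporters of the mouse: the Slc22a family (organic anion, organic cation and carnitine carriers), the Slco family (organic anion transporting polypeptides, OATPs) and the Slc47a family (multidrug and toxin extruders). They were taken by symbol, as every gene whose name begins with Slc22a, Slco or Slc47a followed by a digit and whose mean reached 10 normalised reads in at least 1 of 8 tissues. Of 55285 gene symbols, 43 had such a name and 37 passed the level filter: 24 Slc22a, 12 Slco and 1 Slc47a genes. The threshold divided Slc22a13b (a mean of 10.9 in Skin) and Slc22a14 (13.7 in Lung) from Slc47a2 (6.59 in Skin). Slc22a16, Slc22a20, Slco6b1, Slco6c1 and Slco6d1 were the other symbols left out, each with a mean under 1 in all tissues.

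These proteins sit in the plasma membrane of kidney tubule cells, hepatocytes and barrier endothelia and carry small charged molecules, among them urate, bile acids, prostaglandins, steroid conjugates, thyroid hormones, carnitine and many drugs. In the kidney proximal tubule, the basolateral carriers Slc22a6 (OAT1), Slc22a8 (OAT3) and Slc22a2 (OCT2) take up anions and cations from blood, and apical carriers such as Slc47a1 (MATE1) and Slc22a12 (URAT1) face the urine. In hepatocytes, Slco1b2 takes up bile acids, bilirubin and drugs from portal blood. Several members differ in level between male and female mice, and Slco1a1 of kidney and liver is a known male-predominant gene.

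Messenger RNA was sequenced from Kidney, Liver, Lung, Skin, Aorta, Heart, Brain and the gastrocnemius (Muscle). The donors were untreated wild-type male mice of the C57BL/6J strain, aged 6, 15, 24 or 30 months. Each tissue and age had 4 libraries, 128 in all. All animals were male and of 1 strain, and the Aorta records themselves give age in the title alone, with sex and strain from the series' design text. Whole tissue was used, so that fewer cells of a type and less RNA per cell cannot be told apart in any value below. The labels do not say whether libraries with the same number came from the same mouse, so p-values measure the spread between these libraries.

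Depth ran from 7.65 to 82.8 M reads with a median of 15.6 M (Kidney 11.9 to 23.3 M, Liver 10.1 to 82.8 M). Kidney libraries at 6 months held summed proximal tubule markers of 413370.2 to 421504 normalised reads, and Liver libraries held summed hepatocyte markers of 2339110.1 to 2754589. In both organs, replicate 3 at 30 months stood apart for many members. Among the members that fell at 30 months it was the lowest of the 4 libraries for 16 of 16 in Kidney and for 6 of 7 in Liver. Results below are therefore also given without it, and each tissue's values are normalised reads on that tissue's own scale.

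The leading member per kb of exon differed between Kidney, Liver, Brain and Lung. At 6 months, per kb of exon, the highest of these transcripts in Kidney was the urate carrier Slc22a12 at 8946 ± 422 reads per kb (SD, n = 4), followed by Slc22a6 at 3865 ± 127 and Slc22a18, an imprinted carrier of uncertain substrate, at 3587 ± 45.5. In Liver the bile acid and bilirubin uptake carrier Slco1b2 led at 7155 ± 131 reads per kb, and Slco1a1 stood at 2351 ± 380. Brain was led by Slc22a17, known as a lipocalin-2 receptor, at 2079.8 ± 60 reads per kb, and Lung by the prostaglandin transporter Slco2a1 at 764 ± 62.2.

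By tissue, 30 members had a mean of 10 or more in Kidney, 22 in Liver, 19 in Brain, 18 in Lung, 16 each in Aorta and Skin, 13 in Heart and 12 in Muscle. The thyroid hormone carrier Slco1c1 passed 10 in Brain alone, where its mean was 822 over 16 libraries. Slco1b2 passed it in Liver alone with a mean of 28948, and Slc22a19, Slc22a22, Slc22a13 and Slco1a6 passed it in Kidney alone. Slc22a3 (OCT3), a carrier of monoamines, had its highest mean in Aorta at 896, and Slco5a1, whose substrate is not established, in Muscle at 727.

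**Figure D1:**
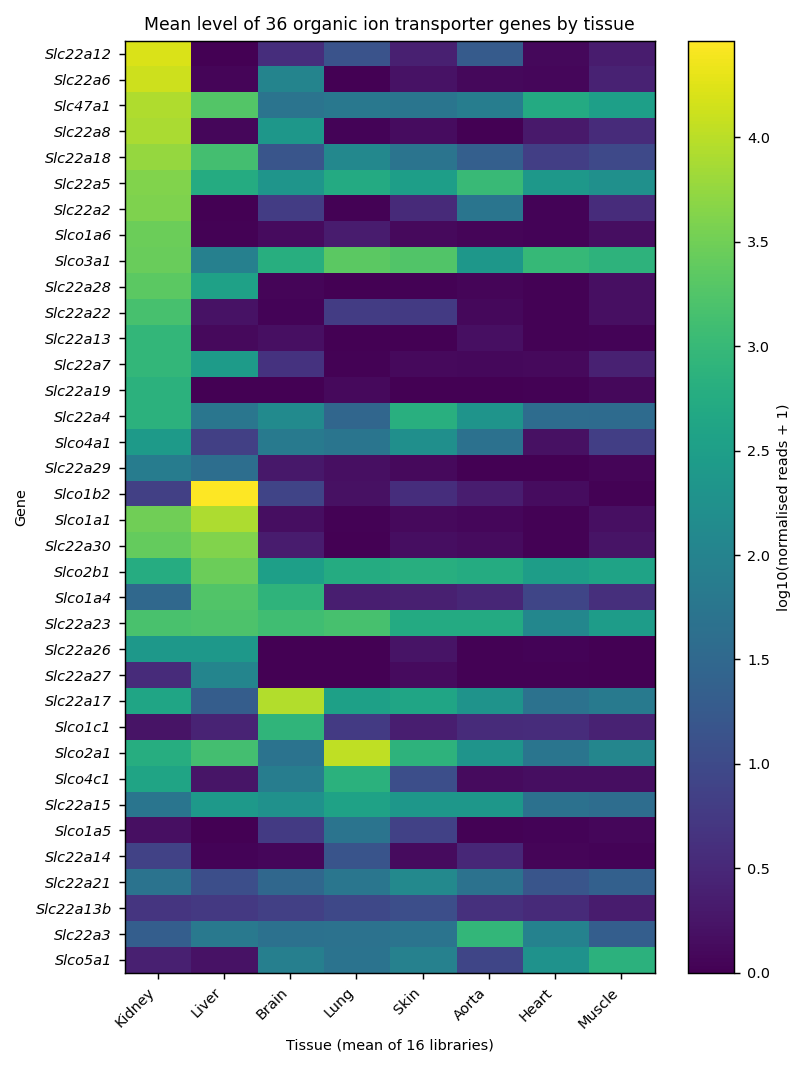
Mean level of 36 of the members (rows, grouped by the tissue of their highest mean) over the 16 libraries of each tissue (columns), as log10(normalised reads + 1). Each tissue was normalised on its own, so the colours show in which tissues a gene is present rather than exact ratios, with Slco1b2 bright in Liver (28948) and Slc22a12 in Kidney (16355).

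A run of neighbouring Slc22a genes on chromosome 19 includes Slc22a26, the member whose change with age differed most between the 2 organs. In RefSeq's GRCm38.p6 gene order, Slc22a19, Slc22a26, Slc22a27, Slc22a28, Slc22a29, Slc22a30, Slc22a8 and Slc22a6 follow one another with 0 other protein-coding genes between neighbours. Slc22a26 to Slc22a30 belong to a rodent expansion of the organic anion transporters whose substrates are poorly known. Of these, Slc22a28 and Slc22a30 fell with age in both organs, while Slc22a29 between them rose in Liver. The promoters of these 3 genes (RefSeq, GRCm38.p6, 250 bases before and 50 after the annotated start) are shown to set that contrast beside their sequence, with capitals in those of Slc22a30 and Slc22a29 marking bases that differ from, or have no partner in, the Slc22a28 promoter.
Slc22a28, chr19:8131933-8132232 (minus strand): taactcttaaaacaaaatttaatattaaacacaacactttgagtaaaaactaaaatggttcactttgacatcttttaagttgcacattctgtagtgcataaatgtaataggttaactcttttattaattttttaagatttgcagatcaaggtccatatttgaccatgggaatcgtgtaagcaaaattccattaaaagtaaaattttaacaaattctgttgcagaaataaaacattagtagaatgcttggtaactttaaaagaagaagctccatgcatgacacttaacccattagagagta
Slc22a30, chr19:8405056-8405355 (minus strand): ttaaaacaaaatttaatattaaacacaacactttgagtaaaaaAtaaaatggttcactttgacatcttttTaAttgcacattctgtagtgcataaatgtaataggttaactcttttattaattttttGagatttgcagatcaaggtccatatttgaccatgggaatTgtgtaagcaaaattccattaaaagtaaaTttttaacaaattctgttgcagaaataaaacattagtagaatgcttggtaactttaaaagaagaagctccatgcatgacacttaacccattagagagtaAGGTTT
Slc22a29, chr19:8218851-8219150 (minus strand): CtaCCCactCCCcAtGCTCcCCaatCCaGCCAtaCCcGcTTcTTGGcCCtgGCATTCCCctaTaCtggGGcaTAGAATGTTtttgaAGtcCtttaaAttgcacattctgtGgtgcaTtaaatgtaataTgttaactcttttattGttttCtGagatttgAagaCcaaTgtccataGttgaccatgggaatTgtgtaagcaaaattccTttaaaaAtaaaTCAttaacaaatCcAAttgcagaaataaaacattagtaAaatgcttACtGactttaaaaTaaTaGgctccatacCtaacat
The Slc22a28 and Slc22a30 promoters were identical at 288 of 294 aligned bases (94.1% over the alignment with gaps), and 12 bases of Slc22a30 are capitals. Slc22a29 was 68.0% identical to Slc22a28 and has 83 capitals. The promoters of Slc22a26 and Slc22a27 were 49.6% and 43.2% identical to that of Slc22a28, close to the 47.2% of the unlinked Slco1a1 promoter. Slc22a26 and Slc22a27, which both rose in Liver, had promoters 44.5% identical to each other.

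Of the 37 members, 30 had a promoter of this length in RefSeq. The TATA box TATAAA, searched on both strands, was in 7 of the 30 and in 13.6% of all 32851 promoters. TTCNNNGAA, the motif of the growth hormone-activated factor STAT5, was in 6 of the 30 and in 8.30% of all promoters. Its matches lay before Slc22a15, Slco1b2, Slco1a5, Slc22a19 and Slc22a26, and before and after the start of Slco2b1. Matches are letters in a window and were not tested as sites.

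Near-identical transcripts limit which member a read belongs to. Of the 75-base stretches in Slc22a28 transcripts (GENCODE M21), 44.2% also occurred in Slc22a30, and 25.3% of those in Slc22a30 occurred in Slc22a28. Slc22a27 shared 13.2% of its stretches with Slc22a29, Slc22a5 17.1% with Slc22a21, and Slc22a13 28.7% with the pseudogene Slc22a13b. Values of these genes are uncertain to the extent that reads were exchanged. Slc22a26 shared 2.75% with any other gene.

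In Kidney, most organic anion carriers were lower at 30 months than at 6 months, and a smaller set of OATPs, with Slc22a15 and Slc22a21, was higher. Of 30 members tested, 21 passed an adjusted p of 0.05 (limma-trend, Benjamini-Hochberg over 15625 genes): 16 fell and 5 rose. That is 70.0% of the tested members, against 28.3% of all genes tested in Kidney (14.1% higher and 14.2% lower). Each change below is a log2 fold change relative to 6 months with its SE, on the log2(value + 1) scale. The median over the 30 members was -0.42, against 0.00085 over all genes.

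By role, 9 of 11 organic anion carriers fell and 0 rose by limma. Slc22a8 and Slc22a29 were the others, and DESeq2 called Slc22a29, with a change above 0. Of 8 cation and carnitine carriers, 2 fell and 2 rose. Of 8 OATPs, 4 fell and 3 rose, and of 3 orphan Slc22 genes 1 fell. Without 30-month replicate 3, 19 members passed, 16 that fell and 3 that rose, and the share of all genes then passing was not counted.

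Slco1a1, an OATP of the apical tubule membrane that carries steroid conjugates, changed most. Its 4 libraries at 6 months held 6155, 6861, 6685 and 5984 normalised reads, and those at 30 months held 1589, 1617, 65.6 and 1057. At 15 months it stood at 2095, 2186, 2590.3 and 2535, and at 24 months at 3754, 2767, 2736 and 474. Every later library lay below every 6-month library, with single very low ones in replicate 4 at 24 and replicate 3 at 30 months. The change at 30 months was -3.30 ± 0.78 (adjusted p = 0.00508), and -2.20 without 30-month replicate 3.

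Slc22a7 (OAT2), a carrier of organic anions and nucleobases, fell from 1682, 1583, 1772 and 1383 at 6 months to 361, 454, 29.9 and 283 at 30 months. The ages in between were 925 to 1267 at 15 months and 383 to 685 at 24 months, both wholly below the 6-month range. The change was -3.04 ± 0.55 (adjusted p = 0.000858), or -2.15 without replicate 3. Slc22a19 (known as Oat5), an apical anion carrier of the tubule, stood at 1047, 1228, 1394 and 1070.2 at 6 months and at 444, 491, 89.8 and 400.2 at 30 months. Its 24-month libraries (441 to 705) also lay under all 6-month libraries, and the change at 30 months was -1.98 ± 0.36 (adjusted p = 0.000952), or -1.41 without replicate 3.

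The chromosome 19 anion carriers tested in Kidney fell by limma, apart from Slc22a29 and Slc22a8. Slc22a27 was below the level filter there and was not tested. Slc22a26 held 262, 304, 395 and 312 reads at 6 months and 128, 135, 108 and 137 at 30 months. Its 30-month libraries were close to one another, and replicate 3 was the lowest. The change was -1.31 ± 0.18 (adjusted p = 0.00012), and it already passed at 24 months with -0.96 ± 0.18 (adjusted p = 0.00332). Slc22a30 went from 2928, 3236, 3577 and 3519 to 1965, 2240.5, 402 and 1886, a change of -1.29 ± 0.36 (adjusted p = 0.0132) that was -0.71 without replicate 3.

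Slc22a28 went from 2449.9, 2525, 2871 and 2695 to 1816, 1982, 218 and 1399, with replicate 3 far under the other 3. Its change of -1.36 ± 0.45 (adjusted p = 0.034) was -0.62 without that library (adjusted p = 0.000867). Leaving out any 1 of the 6-month libraries brought the adjusted p to as much as 0.075. Neither edgeR nor DESeq2 called it in Kidney. Slc22a6, the main basolateral anion carrier, ranged over 15005 to 16092 at 6 months and 6687 to 13793 at 30 months, a change of -0.55 ± 0.16 (adjusted p = 0.0183), or -0.34 without replicate 3. Slc22a8, its neighbour with overlapping substrates, gave 0.03 ± 0.09 (adjusted p = 0.853), with a 95% interval of -0.17 to 0.23, and its 30-month libraries (7590.2, 7996, 8244 and 6712) lay on both sides of the 6-month range of 7353 to 7638. Slc22a29 gave 0.64 ± 0.24 (adjusted p = 0.055).

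Of the anion carriers outside that run, Slc22a22, a prostaglandin-specific carrier in rodent kidney, stood at 1758, 1766, 1782 and 1904 at 6 months and 1384, 1303, 352 and 1155 at 30 months. The groups did not overlap, and the change of -0.96 ± 0.30 (adjusted p = 0.0237) was -0.50 without 30-month replicate 3, while without 6-month replicate 4 the adjusted p was 0.0535. Slc22a12, which takes urate back from the urine, ranged over 19236 to 21418 at 6 months and 10114 to 15682 at 30 months, a change of -0.67 ± 0.11 (adjusted p = 0.000455). Slc22a13 (OAT10, nicotinate and urate) changed by -0.52 ± 0.08 (adjusted p = 0.000371).

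Among the cation carriers, Slc22a2, the basolateral OCT2, held 4653, 4754, 4781 and 4646 reads at 6 months and 3498, 3624, 1516 and 2841 at 30 months. The 6-month libraries lay close together and all 30-month libraries lay below them. The change was -0.79 ± 0.18 (adjusted p = 0.0042), or -0.51 without replicate 3. Slc47a1, the apical exit step for the same cations, changed by -0.39 ± 0.09 (adjusted p = 0.00465) with ranges of 9199 to 10041 at 6 months and 6135 to 8524 at 30 months.

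The carnitine carrier Slc22a5 (OCTN2), the ergothioneine carrier Slc22a4 (OCTN1) and Slc22a3 gave -0.05, 0.02 and 0.68, and none passed. Slc22a15, known in human as a carrier of zwitterions, rose from 35.5, 46.4, 44.4 and 53.7 to 87.7, 57, 76.3 and 57.9, a change of 0.61 ± 0.19 (adjusted p = 0.0259). These were low levels with no overlap between the ages, and leaving out replicate 1 or replicate 3 of either age brought the adjusted p to as much as 0.081. Slc22a21 (Octn3 of the mouse) rose by 0.60 ± 0.19 (adjusted p = 0.0269) with a mean of 49.6. Of the orphans, Slc22a18 fell by 0.26 on the log2 scale, and Slc22a17 and Slc22a23 gave -0.01 and -0.16, neither passing.

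Of the other OATPs in Kidney, Slco2b1, a broad carrier of steroid sulfates and drugs, rose from 428, 410.2, 442 and 559 to 676, 649.9, 836 and 686 reads. Slco2a1, which takes up prostaglandins, rose from 505, 489, 439 and 533 to 703, 609.7, 717 and 689. In both, all 30-month libraries lay above all 6-month libraries, with changes of 0.63 ± 0.10 (adjusted p = 0.000421) and 0.47 ± 0.08 (adjusted p = 0.000775). Slco4a1, a thyroid hormone carrier, went from 219.7, 142, 132 and 180.2 to 261, 165, 419 and 480.2. The groups overlapped, and its change of 0.88 ± 0.31 (adjusted p = 0.0411) missed the threshold when 1 of 5 libraries was left out (replicates 2, 3 and 4 of the young group, replicates 3 and 4 of the old), with an adjusted p of up to 0.129.

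Slco4c1, a basolateral carrier of digoxin and thyroid hormone, fell by 0.69 on the log2 scale, with 404 to 555 reads at 6 months and 237 to 342 at 30 months. Slco3a1 changed by -0.56 ± 0.11 (adjusted p = 0.00159), and Slco1a6 by -0.45 ± 0.06 (adjusted p = 9.49e-05). Slco1a4 was low in Kidney (36.4 to 44.1 at 6 months) and gave -0.49 ± 0.31 (adjusted p = 0.253).

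**Figure D2:**
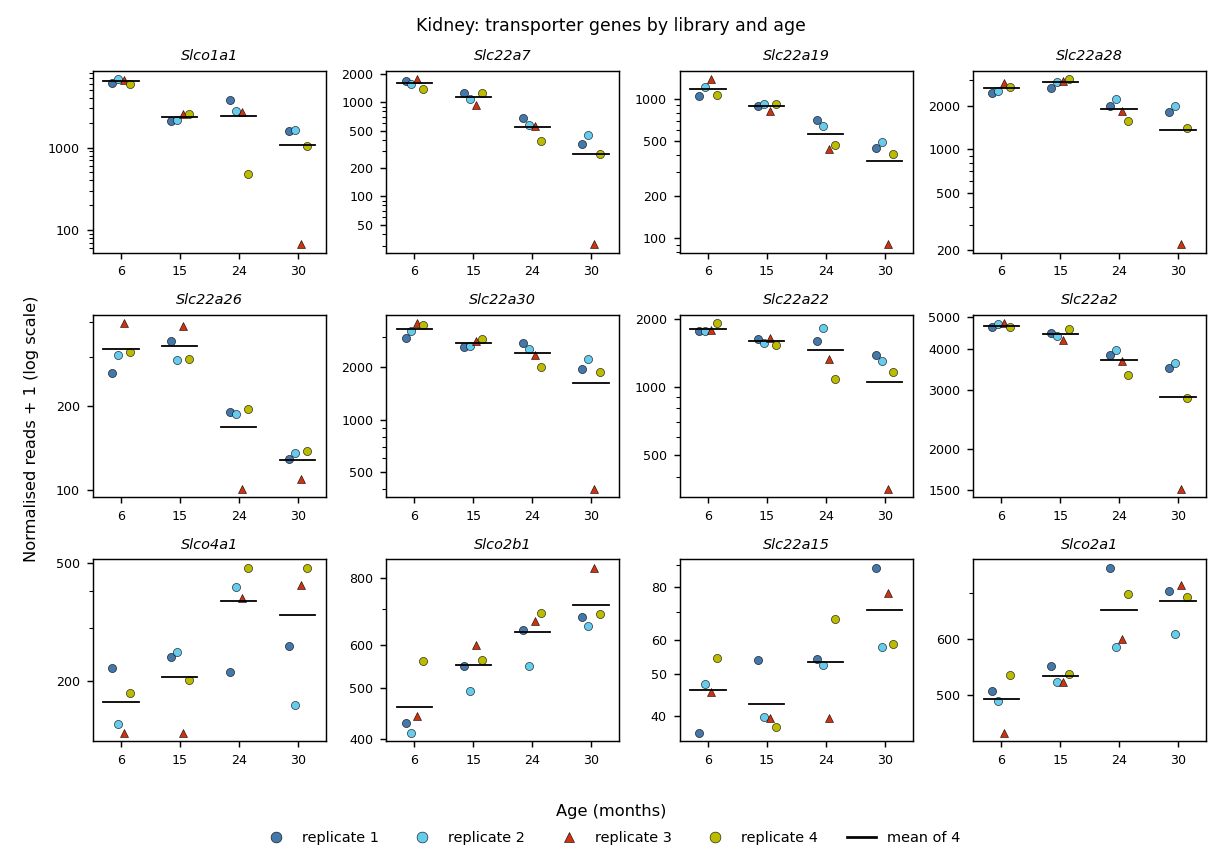
Kidney levels of the 12 members with a mean of 50 or more that had the most extreme passing changes at 30 months, 1 panel each: the x axis is age in months, the y axis normalised reads + 1 on a log scale, points are libraries (replicate 3 as a triangle) and lines are means of 4. The 30-month triangle is the lowest point in all 8 genes that fell, at 65.6 reads for Slco1a1 and 29.9 for Slc22a7.

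In Kidney at 15 months, 0 of the 30 tested members passed, with 5 at an unadjusted p under 0.05 (0.48% of all genes passed by limma). There edgeR and DESeq2 also called 0. At 24 months 7 passed, or 23.3%, against 10.6% of all genes (6.72% higher and 3.9% lower). Slc22a26, Slc22a12, Slc22a13 and Slco1a6 fell, and Slco2a1, Slco2b1 and Slco4a1 rose. Those 7 also passed at 30 months. By edgeR and by DESeq2, 9 passed at 24 months: the same 7 with Slc22a7 and Slc22a19. The share of all genes passing by these tools was not counted at 15 and 24 months.

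At 24 months Slco4a1 stood at 213, 412, 378 and 477, a change of 1.10 ± 0.31 (adjusted p = 0.031), and Slco2a1 at 759.7, 583, 599.5 and 697, a change of 0.42 ± 0.08 (adjusted p = 0.00479). The count at 24 months depended on libraries of other ages, since the 4 ages share an estimate of spread. Without 30-month replicate 3, 18 members passed at 24 months (14 fell and 4 rose), and the share of all genes then passing was not counted. With 1 library left out among replicates 2, 3 and 4 of 6 months and replicates 3 and 4 of 24 months, the count was 3 or 4.

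Genes around the transporters were counted in the same Kidney fit, where 28.3% of all genes passed (14.1% higher and 14.2% lower). All Kidney lists below are to be read against that share. Counting both directions, the proximal tubule markers passed about as often as all genes. Of 20 other proximal tubule markers, 5 fell and 1 rose, among them Acsm2 at -0.71, the glutathione-degrading Ggt1 at -0.64 and the lactate carrier Slc5a12 at 0.28, with a list median of -0.16. Their summed level was 413370.2 to 421504 at 6 months and 294126 to 379443 at 30 months, the lowest in replicate 3. Of 6 androgen-responsive kidney genes, 5 fell, with Acsm3 at -2.42 and the amino acid carrier Slc7a13 at -1.41. The list median was -1.35, and the sum was 321853 to 366913 at 6 months and 53371 to 218691 at 30 months, with 53371 in replicate 3.

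Of 12 tubule injury markers, 10 rose, with lipocalin-2 (Lcn2) at 3.18 and Timp1 at 2.97 and a list median of 1.14, and their sum was 12774 to 14176 at 6 months and 20380.2 to 26108 at 30 months. Of 14 leukocyte markers, 10 rose, with Lyz2 at 2.58 and Adgre1 at 1.87, a list median of 1.60 and a sum of 3251 to 4017 at 6 months and 8287 to 20732 at 30 months. Replicate 3 at 30 months held the lowest sum of that age for both lists. Of 12 markers of other nephron segments, 4 fell and 2 rose, with summed levels of 89886 to 97539 and 89697 to 96206. No marker of these Kidney lists was at 0 in every library, and their part in the transporter changes was not tested.

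Of 20 partner transporters that move the same solutes, 5 rose and 6 fell in Kidney. The efflux pumps Abcc3 and Abcb1b rose by 1.67 and 1.39, and the phosphate and urate carriers Slc17a3 and Slc17a1 were at -1.15 and -0.54. Of 21 hormone receptors and nuclear regulators, 2 rose (the prolactin receptor Prlr at 1.31 and the xenobiotic receptor Nr1i2 at 0.60) and 3 fell, among them the growth hormone receptor Ghr at -0.79 and the estrogen receptor Esr1 at -0.55. That is 5 of 21, where 28.3% of all Kidney genes passed.

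In Liver, members that fell and members that rose were nearly equal in number, and the largest changes were rises of genes almost silent at 6 months. Of 21 members tested at 30 months, 12 passed: 5 rose and 7 fell. That is 57.1%, against 24.9% of the 13420 genes tested (13.8% higher and 11.0% lower). The median over the members was -0.31, against -0.02 over all genes. Of 6 organic anion carriers 3 rose and 2 fell, of 6 OATPs 2 rose and 2 fell, of 6 cation and carnitine carriers 2 fell and 0 rose, and of 3 orphans 1 fell. Without 30-month replicate 3, 9 passed (3 rose and 6 fell), and without 6-month replicate 2 or 3, 7 passed. The share of all genes passing was not counted for these fits.

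Slc22a26 held 3.6, 10.1, 24.1 and 37.7 normalised reads at 6 months, 21.2, 54.9, 60.0 and 101.5 at 15, 149.6, 223, 61.1 and 132 at 24 and 313, 221, 2014 and 372 at 30 months. All libraries at 24 and 30 months lay above all those at 6 months, and 30-month replicate 3 stood far above the other 3. The change at 30 months was 5.0 ± 0.71 (adjusted p = 0.00041), or 4.31 without that library, and it passed at 24 months with 3.11 ± 0.71 (adjusted p = 0.0124). Slc22a27 went from 10.8, 10.1, 20.9 and 17.9 at 6 months through 29.4, 44.7, 24.8 and 50.7 at 15 and 76.3, 110.1, 63.2 and 59.3 at 24 to 209, 190.3, 522 and 295 at 30 months. Each age lay wholly above the one before it, with changes of 2.32 ± 0.34 (adjusted p = 0.00165) at 24 and 4.20 ± 0.34 (adjusted p = 8.73e-06) at 30 months.

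Slc22a29, with a mean of 39.8, was lower but moved the same way, from 16.2, 15.2, 24.1 and 13.9 to 94.7, 74.3, 57 and 81.7. Its change was 2.09 ± 0.27 (adjusted p = 0.000249), and here replicate 3 was the lowest of the 30-month libraries. The change at 24 months was 1.02 ± 0.27 (adjusted p = 0.0222). These 3 neighbours were the only members past the threshold at 24 months, which is 14.3% of those tested against 11.6% of all genes (7.6% higher and 3.99% lower). Without 30-month replicate 3, 8 passed at 24 months, 5 of them lower, and the share of all genes then passing was not counted. At 15 months 0 passed, with 9 at an unadjusted p under 0.05 (1.23% of all genes passed by limma). There edgeR called 0 and DESeq2 called 1, Slc22a27, and their shares of all genes were not counted.

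Slc22a28 and Slc22a30, whose transcripts share stretches, fell in Liver, and the part of exchanged reads in this was not tested. Slc22a28 held 557, 618, 534 and 636 reads at 6 months, 507, 485, 463 and 414 at 15, 279.7, 299, 299 and 243 at 24 and 91.1, 197, 0 and 181 at 30 months. The ranges of the 4 ages did not overlap, and replicate 3 at 30 months had 0 reads. The change at 30 months was -3.78 ± 1.12 (adjusted p = 0.0223), and -1.97 without replicate 3. By limma-trend it missed the threshold with a pseudocount of 0.1 and with the 2 ages alone (adjusted p up to 0.0984). Slc22a30 went from 5029.7, 5618, 5146 and 5674 to 2919, 3013, 1229.9 and 3258, a change of -1.14 ± 0.22 (adjusted p = 0.00199), or -0.81 without replicate 3. Slc22a7, the sixth anion carrier tested, gave -1.65 ± 0.74 (adjusted p = 0.119), and -0.52 without replicate 3, which held 11.9 reads against 211 to 415 in the other 3.

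Among the hepatic OATPs, Slco1a1 held 9725, 13210.3, 12215 and 14455 reads at 6 months and 1838, 4970.0, 11.9 and 6519 at 30 months. All 30-month libraries lay below all 6-month libraries, but they were widely spread. The change was -3.71 ± 1.30 (adjusted p = 0.0472), or -1.65 without replicate 3 (adjusted p = 0.00271). Leaving out any 6-month library or 30-month replicate 1 brought its adjusted p to as much as 0.093, and neither edgeR nor DESeq2 called it. Slco1b2, the main hepatic uptake carrier of this family, went from 35393, 35169.6, 34472 and 36034 to 24960.1, 22868, 15120.4 and 27625, a change of -0.67 ± 0.15 (adjusted p = 0.0043), or -0.49 without replicate 3.

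Slco1a4, a carrier of digoxin and bile acids whose gene lies between Slco1b2 and Slco1a1 on chromosome 6, rose from 1524, 1292, 1308 and 1987 to 3155, 2491, 4054 and 2804. At 15 months its libraries (370.0 to 1160.4) lay below all 6-month libraries, with -0.97 ± 0.31 (adjusted p = 0.132), and by 30 months all lay above them. The change at 30 months was 1.03 ± 0.31 (adjusted p = 0.0218), and its adjusted p reached 0.0631 without 30-month replicate 3 and also missed 0.05 without 6-month replicate 2 or 3. Slco3a1 was low, at 79.1, 69.2, 59.4 and 61.6 at 6 months and 89.3, 122, 100.7 and 82.4 at 30 months. Its change was 0.54 ± 0.18 (adjusted p = 0.0434), and leaving out any of 6 libraries (6-month replicates 2, 3 and 4 and 30-month replicates 1, 2 and 3) brought the adjusted p above 0.05, up to 0.134, and neither edgeR nor DESeq2 called it. Slco2b1 and Slco2a1 gave -0.13 and 0.20, neither passing.

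Of the cation and carnitine carriers in Liver, Slc22a15 went from 381, 353, 276 and 262 to 269.8, 229, 162 and 155, with overlap, a change of -0.66 ± 0.18 (adjusted p = 0.0147) whose adjusted p was 0.0516 without 6-month replicate 1. Slc47a1, Slc22a3, Slc22a4 and Slc22a5 gave changes of -0.34, -0.31, -0.13 and -0.30, none passing.

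The orphan Slc22a23 went from 1965, 1925, 1752 and 1561 to 1420.2, 1523, 1128 and 1529.8 in Liver, a change of -0.37 ± 0.12 (adjusted p = 0.0302). Its adjusted p missed 0.05 when replicate 1, 2 or 3 of the young group, or replicate 3 of the old, was left out, reaching 0.0911. The other 2 orphans, Slc22a18 and Slc22a17, gave -0.17 and -0.52, neither passing.

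**Figure D3:**
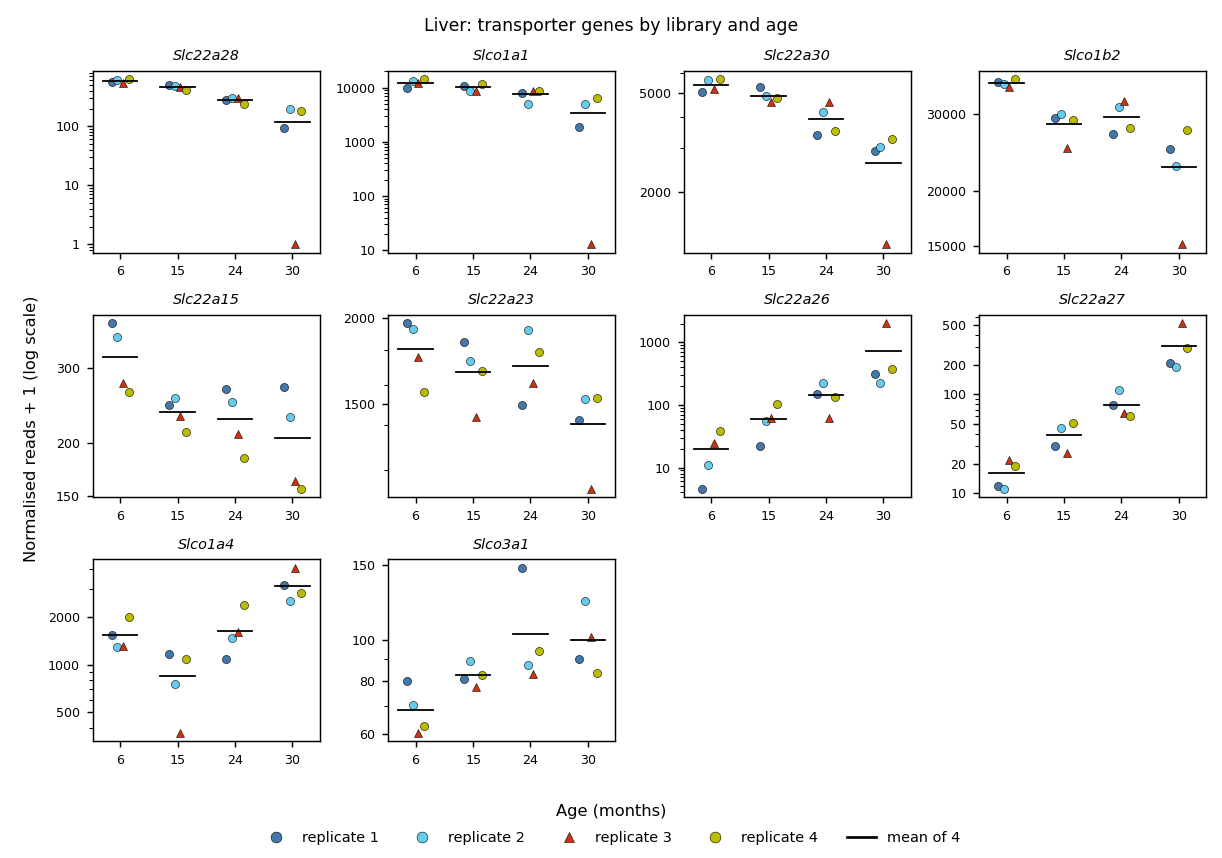
Liver levels of 10 members with a mean of 50 or more that passed at 30 months, 1 panel each: the x axis is age in months, the y axis normalised reads + 1 on a log scale, points are libraries (replicate 3 as a triangle) and lines are means of 4. The 30-month triangle is the lowest point for 5 of the 6 genes shown that fell (0 for Slc22a28) and the highest for Slc22a26 (2014), Slc22a27 (522) and Slco1a4 (4054).

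Sex-biased genes and other lists were counted in the same Liver fit, where 24.9% of all genes passed (13.8% higher and 11.0% lower). All Liver lists below are to be read against that share. Of 15 male-biased liver genes other than transporters, 13 fell, with the major urinary proteins Mup15 at -7.33 and Mup17 at -7.23, a list median of -3.07 and a summed level of 440787 to 497022 at 6 months and 18998 to 314661 at 30 months, with 18998 in replicate 3. Mup genes are near-identical and can exchange reads. Of 7 tested female-biased genes, 5 rose, with the cytochromes Cyp2b9 at 4.39 and Cyp2a4 at 4.28, a list median of 2.50 and a sum of 336 to 865 at 6 months and 1551 to 9771 at 30 months, the highest in replicate 3; Cyp3a16 of that list was at 0 in every library. Of 16 hepatocyte markers, 4 fell and 1 rose, with a median of -0.35 and sums of 2339110.1 to 2754589 at 6 months and 2091162 to 3581328 at 30 months. All 14 leukocyte markers rose, with Cd3g at 3.54 and Cd3e at 2.88, a median of 2.26 and sums of 2697 to 4106 at 6 months and 7097 to 22859 at 30 months. Of 5 tested cholangiocyte markers 0 passed. The part of these lists in the transporter changes was not tested.

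Of 22 partner transporters in Liver, 4 rose and 5 fell. The pump Abcc1 and the dicarboxylate carrier Slc13a3 were at 1.38 and 0.88, and the canalicular pumps Abcg2 and Abcb11 at -1.11 and -0.77. Of 22 hormone receptors and regulators, 2 rose (Esr1 at 1.0 and Prlr at 0.79) and 4 fell, among them Ghr at -0.90 and the fatty acid receptor Ppara at -0.56. That is 6 of 22, where 24.9% of all Liver genes passed.

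**Figure D4:**
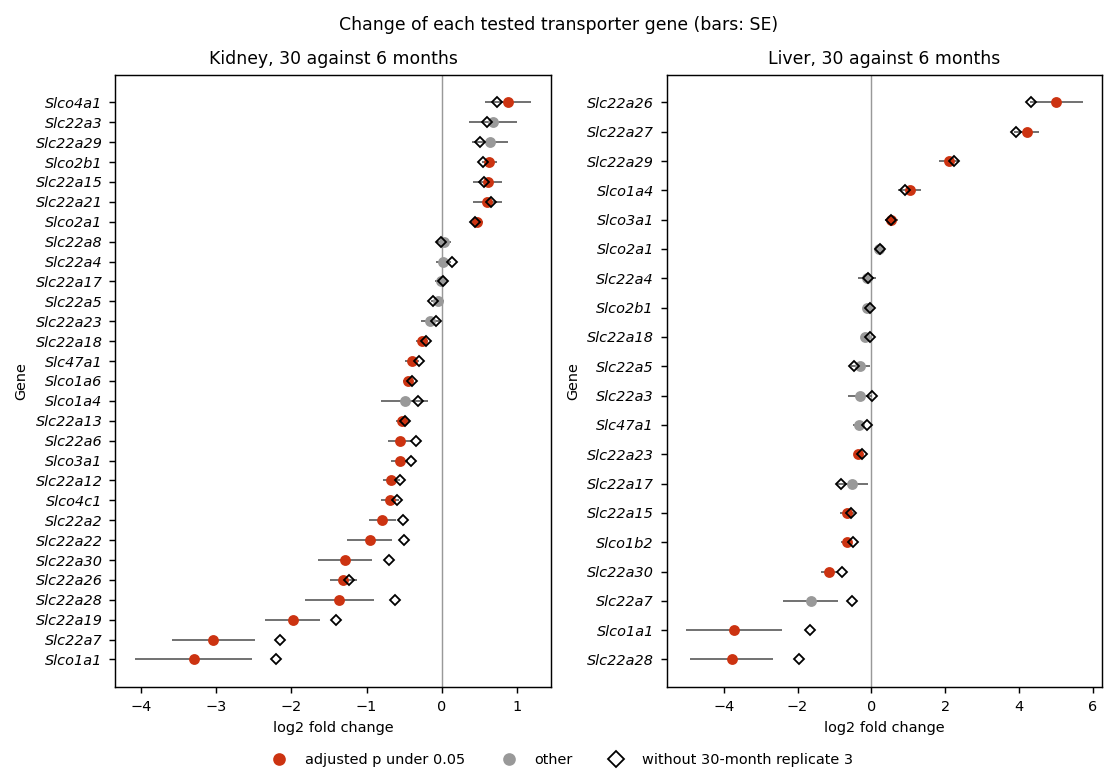
Change at 30 against 6 months of 29 members tested in Kidney (left) and 20 tested in Liver (right): the x axis is the log2 fold change, bars are SE, red points have an adjusted p under 0.05, and open diamonds are the change without 30-month replicate 3. In Kidney the diamonds of the lowest genes lie nearer to 0 (-2.20 for Slco1a1), and in Liver the rise of Slc22a26 and Slc22a27 stays near 4 without that library (4.31 and 3.90).

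The difference between the organs was tested directly, as the Kidney change minus the Liver change over all 32 libraries. Among the 19 members above the level filter in both organs, 6 passed, and the share of all genes above it in both was not counted. With those above it in only 1 organ, 11 of 32 passed (34.4%, against 7.16% of 16240 genes). That share is partly made of changes measured in only 1 organ, so it is no comparison of the organs. Those 16240 genes likewise include genes above the filter in only 1 organ. Slc22a26 had the largest difference, -6.31 ± 0.78 (adjusted p = 8.11e-06), falling in Kidney and rising in Liver. Slc22a15 moved the opposite way, up in Kidney and down in Liver, with 1.27 ± 0.27 (adjusted p = 0.00348), and Slco3a1 fell in Kidney and rose in Liver with -1.10 ± 0.21 (adjusted p = 0.00106). Slco2b1 (0.77 ± 0.14), Slco1a4 (-1.52 ± 0.45) and Slc22a29 (-1.45 ± 0.37) were the other 3.

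The remaining 5 members that passed were below the level filter in 1 organ, so they do not compare 2 measured changes. These were Slc22a27, which had a mean of 2.60 in Kidney, and Slc22a19, Slc22a12, Slco4c1 and Slc22a2, which had means under 1 in Liver over its 16 libraries. Slc22a19, Slc22a2 and Slc22a12 had 0 Liver reads at 6 and 30 months, and their difference is the Kidney change itself. Slco1a1, Slc22a28 and Slc22a30 fell in both organs and gave differences of 0.41 ± 1.63, 2.42 ± 1.30 and -0.15 ± 0.46, none passing, with wide intervals. With 30-month replicate 3 of both organs left out, 10 passed, 7 of them among the 11. Slc22a7 and Slc22a28 were among those that then passed, and Slco1a4, Slco4c1, Slc22a12 and Slc22a2 did not. edgeR called 5 and DESeq2 called 7, all among the 11, and their shares of all genes were not counted.

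**Figure D5:**
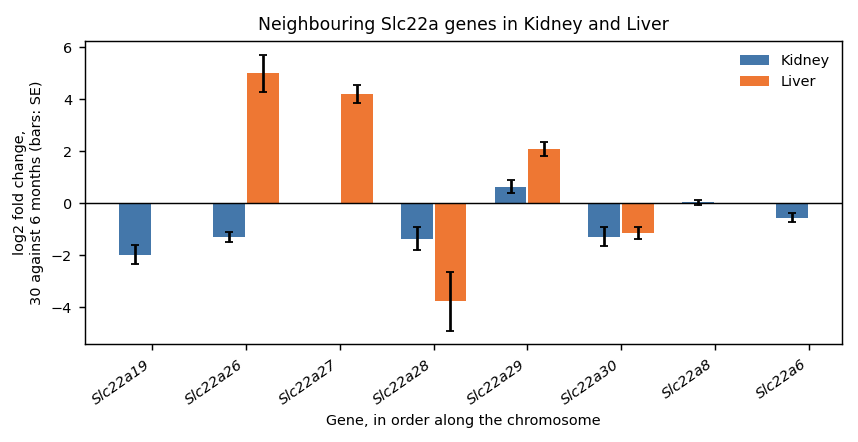
Change at 30 against 6 months (y axis, log2 fold change, bars are SE) for the 8 neighbouring Slc22a genes of chromosome 19 in gene order (x axis), in Kidney (blue) and Liver (orange); a gene below the level filter has no bar. Slc22a26 points down in Kidney (-1.31) and up in Liver (5.0), and Slc22a28 and Slc22a30 point down in both.

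Outside Kidney and Liver the members changed about as often as other genes. Of 98 pairs of member and tissue tested at 30 months in the other 6 tissues, 8 passed (8.16%, 3 higher and 5 lower), against 8.67% of all pairs, with 25 at an unadjusted p under 0.05. In Aorta, Heart and Skin 0 passed by limma, with 5, 7 and 3 at an unadjusted p under 0.05, against 5.67%, 5.15% and 0.72% of all genes passing. By edgeR it was 0 in Aorta, 1 in Heart and 0 in Skin, against 803 of 14980, 877 of 14301 and 127 of 16804 genes. By DESeq2 it was 1, 2 and 0, against 1589, 1267 and 540 of the same genes.

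In Brain, Slc22a17 fell from 9367, 9221, 9204 and 9786 to 7543, 7821, 7447 and 7595, a change of -0.31 ± 0.04 (adjusted p = 0.000124). This is a small change with no overlap between the ages and little spread within them. Slc22a18 rose there from 5.49, 4, 5.82 and 10.4 to 22.7, 12.7, 16.5 and 20.4, a change of 1.40 ± 0.32 (adjusted p = 0.0103) at low levels. The barrier carriers Slco1c1 and Slco1a4 gave -0.18 ± 0.09 (adjusted p = 0.23) and 0.10 ± 0.10 (adjusted p = 0.632). These 2 passing members are 10.5% of those tested in Brain, against 7.5% of all genes.

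In Lung, Slco2b1 rose from 365, 395, 440.0 and 424 to 620.4, 821, 594 and 674, a change of 0.73 ± 0.10 (adjusted p = 0.000338) with no overlap. Slc22a23 fell from 1446, 1745, 1662 and 1705 to 1320.2, 1164, 1396 and 1068, and its change was -0.41 ± 0.09 (adjusted p = 0.00417). Slco3a1 changed by -0.20 ± 0.05 (adjusted p = 0.0193), and Slc22a12, with a mean of 12.6, by 1.59 ± 0.43 (adjusted p = 0.0175). One 30-month Lung library held 50.9 Slc22a12 reads against 8.55 to 17.4 in the other 3. The tissue's leading member, Slco2a1, gave 0.16 ± 0.09 (adjusted p = 0.203). The 4 passing members are 4 of 20 tested in Lung, against 19.4% of all genes.

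In Muscle, Slc47a1 went from 373, 345, 320.3 and 314 to 240.1, 352, 232 and 225, with 1 library of the older group inside the younger range, and a change of -0.38 ± 0.12 (adjusted p = 0.0468) that edgeR did not call. Slc22a23 went from 386, 286, 308 and 327 to 274, 295, 264 and 211, again with overlap, and a change of -0.33 ± 0.10 (adjusted p = 0.0422). These 2 are 15.4% of the members tested in Muscle, against 13.1% of all genes. The Aorta member with the highest mean after Slc22a5, Slc22a3, gave -0.31 ± 0.11 (adjusted p = 0.109), and Slc47a1 in Heart gave -0.32 ± 0.11 (adjusted p = 0.117).

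Some members passed in more than 1 tissue. Slco2b1 rose in Kidney and Lung and gave -0.13 in Liver, not passing. Slc22a23 fell in Liver, Lung and Muscle and gave -0.16 in Kidney, not passing. Slco3a1 fell in Kidney and Lung and rose in Liver. Differences between tissues, other than Kidney minus Liver, were not tested. Slc22a14, Slco1a5 and Slc22a13b, the members with the lowest highest-tissue means, had age means of 11.1 to 18.4 in Lung, 39.3 to 63.3 in Lung and 10.2 to 11.4 in Skin, and none passed there at 30 months.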

How the data were processed

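The authors deposited 1 table per tissue with a signal per gene symbol and library: reads normalised within that table. Per the labels' protocols RNA was extracted with RNAiso Plus and libraries made with Illumina Stranded mRNA Prep. Per the submitters' processing notes, the tools were STAR, RSEM, FastQC and DESeq2 (no versions named) and the genome build was GRCm39. Annotation: not given in the sources used here. Multiplying a library's deposited signal by 1 factor gave whole reads for 100% of values within 0.01 reads (largest deviation 0.0017), and hence its depth. No values were tested between tables other than as differences of within-table changes.

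Since the values are normalised, limma-trend (limma 3.58.1, R 4.3.3) was the main test, on log2(value + 1) with 1 mean per age over the 16 libraries of a tissue. Genes were kept by filterByExpr (edgeR 4.0.16, minimum count 10). Tests were two-sided with Benjamini-Hochberg adjustment over all genes of the tissue and a threshold of 0.05. The Kidney and Liver difference was fitted over 32 libraries. Alternatives were edgeR (TMM) and DESeq2 1.42.0 on the recovered reads, TMM scaling, pseudocounts of 0.1 and 5, no filter, 2 ages alone, a replicate block and left-out libraries. Leaving out single libraries of ages not compared, or replicate 3 of both organs at 30 months, was added after seeing the data. Members, roles and gene lists were chosen with earlier results of these data known. Values per library were given for called members with a mean of 50 or more, up to 8 highest and 8 lowest changes per organ, and for called members of the other tissues. Slc22a29 in Liver, Slc22a8 in Kidney, Slc22a7 in Liver and the intermediate ages were added after their values were seen.

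On simulated data, genes changed 2-fold were recovered at 79.1% in Kidney (15532 genes), 67.2% in Liver (13237) and 50.7% for the difference (15582). Genes changed 1.5-fold were recovered at 64.2%, 19.4% and 22.4%, and those changed 4-fold at 98.5%, 87.9% and 84.8%. False calls made up 9.04%, 4.13% and 3.67% of the simulated calls, above the 5% aimed for in Kidney. The simulation changed 67 genes 1.5-fold, 67 genes 2-fold and 66 genes 4-fold. It drew each gene independently and had no library that stood apart. In the data 28.3% of Kidney and 24.9% of Liver genes passed at 30 months, so the simulated rates need not hold there. Replicates were compared for copies and differed beyond sampling noise (chi-square over its degrees of freedom at least 2.49). Promoters and exon lengths come from RefSeq GRCm38.p6 and GENCODE M21, and no coordinate was carried to GRCm39. The counts cover all 37 members, and the values of 1 of them are not reported here. Transcript stretches were matched for 36 of 37 members. Tables and figures used pandas 2.3.3 and matplotlib 3.10.9 in Python 3.11.15.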

Additional observations from a re-analysis of the deposited data

Results flagged for a closer look

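Of 88 groups of 4 libraries tested among the members named in Kidney and Liver, 6 held a library that stood far from the other 3 by Dixon's criterion, and chance alone gives about 1 in 20. In Liver at 30 months replicate 3 was the library in 2 cases, with Slc22a30 at 1229.9 normalised reads (others 2919 to 3258) and Slc22a26 at 2014 (others 221 to 372). The other 4 were in different libraries: Slc22a26 in Kidney at 24 months, replicate 3, at 99.9 (others 186 to 194); Slc22a22 in Kidney at 6 months, replicate 4, at 1904 (others 1758 to 1782); Slc22a15 in Kidney at 15 months, replicate 1, at 52.9 (others 36.7 to 38.8); and Slco3a1 in Liver at 24 months, replicate 1, at 147 (others 82.2 to 92.9). Kidney replicate 3 at 30 months, though the lowest for all 16 members that fell, was not marked by this criterion.

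The difference between the Kidney and the Liver change from 6 to 30 months passed its test for 11 members, 6 of which were above the level filter in both organs. The log2 differences, Kidney change minus Liver change, were -6.31 ± 0.78 for Slc22a26, -3.80 ± 0.75 for Slc22a27, -1.98 ± 0.43 for Slc22a19, -1.86 ± 0.52 for Slco4c1, -1.52 ± 0.45 for Slco1a4 and -1.45 ± 0.37 for Slc22a29. They were -1.10 ± 0.21 for Slco3a1, -0.79 ± 0.23 for Slc22a2, -0.67 ± 0.17 for Slc22a12, 0.77 ± 0.14 for Slco2b1 and 1.27 ± 0.27 for Slc22a15. In 5 of them (Slc22a26, Slco3a1, Slc22a15, Slco1a4 and Slco2b1) the 2 organs' changes had opposite signs, although the Kidney change of Slco1a4 and the Liver change of Slco2b1 did not pass on their own. Slc22a27 was below the level filter in Kidney, and Slc22a19, Slc22a2, Slc22a12 and Slco4c1 were below it in Liver. Slc22a19 and Slc22a2 had 0 reads there at 6 and 30 months, as did Slc22a12, so their values restate the Kidney change and do not compare the organs.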

How the results depend on the processing

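No fold change reversed. Of 374 alternative values for the 22 fold changes given by library, 317 stayed on their side of the threshold and 57 missed it. The counts of members past the threshold moved by more than 1.5 times in these cases, and the cause was not tested. With the 2 ages alone, 4 passed in Kidney at 15 months and 15 at 24 months, and 2, 9 and 6 in Liver at 15, 24 and 30 months. Without Kidney replicates 3 and 4 of 30 months, 1 passed in Kidney at 15 months, 20 at 24 months and 7 for the difference between organs. Without 30-month replicate 3 of the organ, 18 passed in Kidney at 24 months, and 4 and 8 in Liver at 15 and 24 months. For all these fits and the next ones, the share of all genes passing was not counted. DESeq2 called 1 in Liver at 15 months. For the difference, edgeR called 5, DESeq2 7 and a pseudocount of 0.1 gave 7.

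Leaving out each library of the ages compared gave 0 to 0, 3 to 7 and 17 to 21 in Kidney at 15, 24 and 30 months, 0 to 0, 2 to 4 and 7 to 12 in Liver, 6 to 9 pairs in the other 6 tissues and 8 to 12 for the difference. Without Heart 24-month replicate 4, 12 pairs passed there against 8. With the replicate number as a block, 0, 8 and 21 passed in Kidney, 0, 4 and 12 in Liver, 8 in the other tissues and 12 for the difference. Same-numbered libraries correlated above 0.1 in 9 of 24 pairs of ages in Kidney, 6 of 24 in Liver and 6 of 16 between the organs. The highest correlation between the organs was 0.465. These values cannot show whether libraries came from the same mouse. The main tests did not pair the samples, and the difference between organs was fitted as if all libraries were independent. A member that did not pass is not shown to be unchanged.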
